A study of Homo sapiens with 4 samples.

Results

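Gene expression at 48 h was compared with that at 24 h in MCF-10A cells given the compound that the labels call stapled-peptide. Each time was measured on 1 Agilent one-colour array, and these are 2 of the 4 arrays of the series. The members are the 15004 genes, of 20501 genes with a symbol on the array (73.2%), whose probe was marked well above background on both arrays. A further 1175 genes carried that mark on 1 of the 2 arrays and 4322 on neither. The lowest log2 signal with the mark was 3.94 at 24 h and 3.89 at 48 h. With 1 array per time there is no replicate, so no difference was tested between the times, and the values are judged against the scatter between spots, the agreement of probes of 1 gene and the behaviour of gene families.

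MCF-10A is an established, non-tumorigenic human mammary epithelial line that lacks oestrogen receptor alpha, and the study used it to look for off-target effects of stapled peptides designed against the BIG3-PHB2 interaction. Cells received 10 µM of the stapled-peptide or of a non-specific stapled-peptide, which the labels name as the control treatment, and RNA was collected after 24 h and 48 h. The labels do not say which numbered peptide of the study either name stands for. No untreated or vehicle-treated array was used here, and the label gives 1 cell line with no statement on whether cultures were separate.

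The 24 h and 48 h stapled-peptide arrays and the non-specific array at 24 h carried the mammary basal markers of the label, with all 22 listed markers well above background. The log2 of their summed signal, which the brightest markers largely set, was 17.50 at 24 h and 17.53 at 48 h with the stapled-peptide. It was 17.57 at 24 h with the non-specific peptide. The non-specific array at 48 h stood apart, with 18 of the 22 markers well above background and a log2 of the summed signal of 10.76. That array is therefore not used here as a reference, and its levels are given only beside those of the other 3. ESR1, which encodes oestrogen receptor alpha, had a log2 signal of 4.86 at 24 h and 5.19 at 48 h on its brightest probe, and its other probes were not well above background. Of the leukocyte list, 7 of 9 genes were well above background on each stapled-peptide array, and ITGAM was below the mark on both. The log2 of the summed signal of this list was 11.61 at 24 h and 11.67 at 48 h. The luminal and fibroblast lists gave 16.60 and 16.63, and 16.87 and 16.92, so none of these sums moved between the times by over 0.1. The part of these lists in any result was not tested.

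Basal mammary epithelium anchors itself with keratins, hemidesmosomal integrins and laminins, and it divides under epidermal growth factor. A change of state in such a culture is usually a movement of whole gene programmes: histones, replication and mitosis genes follow the share of dividing cells, cornified envelope genes follow squamous differentiation, interferon-stimulated genes follow type I interferon, and hypoxia genes follow oxygen and cell density. The gene lists below were drawn up to follow these programmes between the 2 times.

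The transcriptomes at 24 h and 48 h were close to each other. Of the 15004 genes, 54 were at least 2-fold higher at 48 h (0.36%) and 92 were at least 2-fold lower (0.613%). At 1.5-fold these numbers were 251 higher (1.67%) and 296 lower (1.97%), and 96.4% of genes differed by less than that. The median log2 difference was 0.00, the quartiles were -0.08 and 0.09, and 49.9% of genes were higher at 48 h. Quantile normalization largely sets this balance, so it says nothing of an overall direction. With each array shifted to a common 75th percentile instead, 36 genes were at least 2-fold higher and 116 lower, and without normalization 24 were higher and 226 lower, around a median of -0.23.

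The genes past 2-fold were almost all dim. Of these 146 genes, 141 had a mean log2 signal below 7, although such genes made up 4929 of the 15004. Among the 10075 genes at or above 7, 1 was at least 2-fold higher (CLSTN3) and 4 were at least 2-fold lower (PRPF38B, ATP13A3-DT, ZNF497 and NNAT). At 1.5-fold, 15 of these brighter genes were higher and 19 lower. The middle 90% of the brighter genes lay between -0.18 and 0.19 on the log2 scale.

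The scatter between spots of 1 array sets what a single-spot difference can show. The array carries 902 probes spotted 10 times, of which 679 were well above background at both times. From their spots, the SD expected for a difference between single spots was 0.42 at mean log2 signals up to 5, 0.14 between 7 and 8, and 0.08 between 11 and 12. The SD observed over genes read from a single spot was 0.38, 0.18 and 0.09 in those classes. The observed SD was furthest above the spot value between 5 and 6 (0.48 against 0.29), between 6 and 7 (0.35 against 0.22) and between 10 and 11 (0.17 against 0.08), the class that holds PRPF38B, and it was above it in every class but the dimmest.

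**Figure D1:**
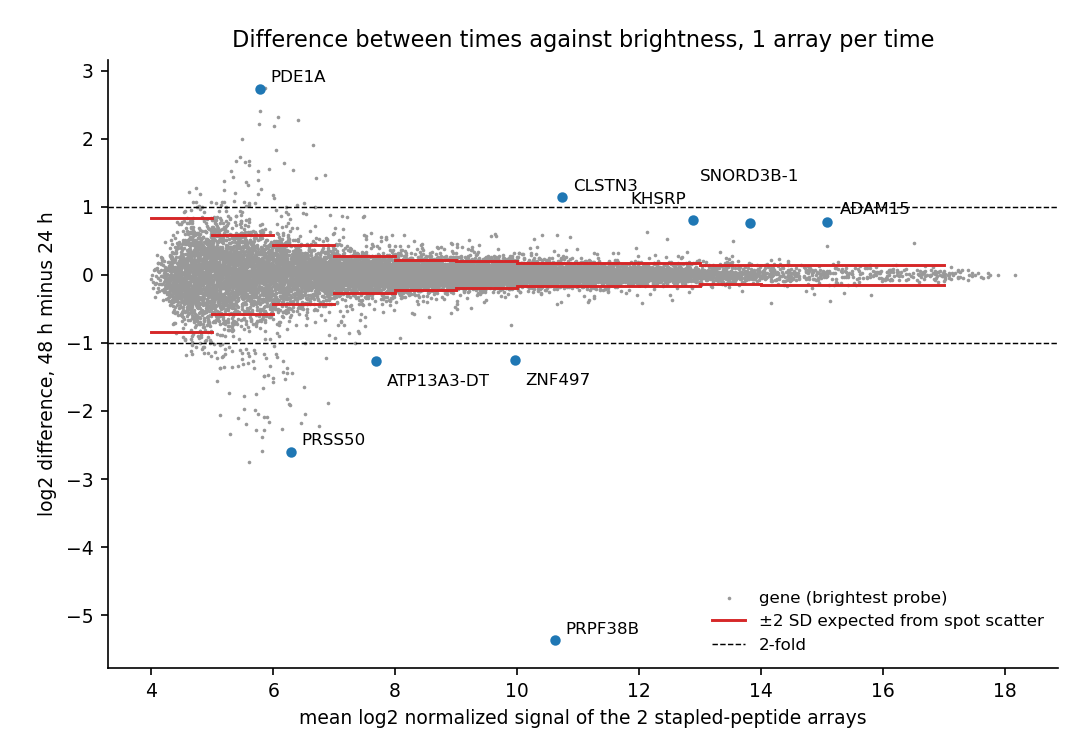
Log2 difference between 48 h and 24 h (vertical axis) against the mean log2 normalized signal of both stapled-peptide arrays (horizontal axis), 1 grey point per gene, 15004 genes. Red steps give 2 SD expected from spot scatter in each class of brightness and dashed lines give 2-fold; the points narrow as signal grows, and CLSTN3, ZNF497 and PRPF38B lie far outside the steps.

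Means over 10 spots were tighter. None of the 679 such probes differed by 2-fold, and 1 passed 1.5-fold. That probe belonged to B3GNT8, a glycosyltransferase, at 7.08 at 24 h and 6.49 at 48 h, a log2 difference of -0.59 with an SE of 0.07 over 9 spots on each array. The following probes were singled out after their values were seen. JDP2, a repressor of the AP-1 family, was at 10.02 at 24 h and 10.41 at 48 h, a difference of 0.39 (SE 0.02 over spots). PFDN6, a prefoldin subunit that helps fold actin and tubulin, was at 9.5 and 9.88, a difference of 0.38 (SE 0.01). BAX, the pro-apoptotic partner of BCL2 and a p53 target, was at 11.42 and 11.74, a difference of 0.32 (SE 0.03), and both of its probes were higher at 48 h, by 0.29 and 0.32. These SEs cover the scatter of spots within an array and nothing of the culture, the RNA or the hybridization. The SD over the replicated probes was above that expected from their spots in every class of brightness, for example 0.07 against 0.03 between 11 and 12.

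The levels on the non-specific array at 24 h differed among these 3 genes. JDP2 was at 10.38 there, beside its 48 h stapled-peptide level. PFDN6 was at 8.90 and BAX at 10.65, both lower than on either stapled-peptide array.

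The 41 gene lists hold 1138 distinct genes, of which 1011 were measured on both arrays. Among those 1011, 1 was at least 2-fold higher and none was at least 2-fold lower, and 3 passed 1.5-fold in each direction. Over all 15004 genes, 0.36% were at least 2-fold higher and 0.613% lower, and 1.67% and 1.97% passed 1.5-fold. The lists were not matched to all genes in brightness, and the genes past 2-fold were almost all dim. The medians of the lists lay between -0.12 and 0.10, and 39 of 41 were within 0.1 of 0. The median of all genes was 0.00. Without normalization between arrays the median of all genes was -0.23 and every list median was below -0.1, so each list's value is read relative to all genes.

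**Figure D2:**
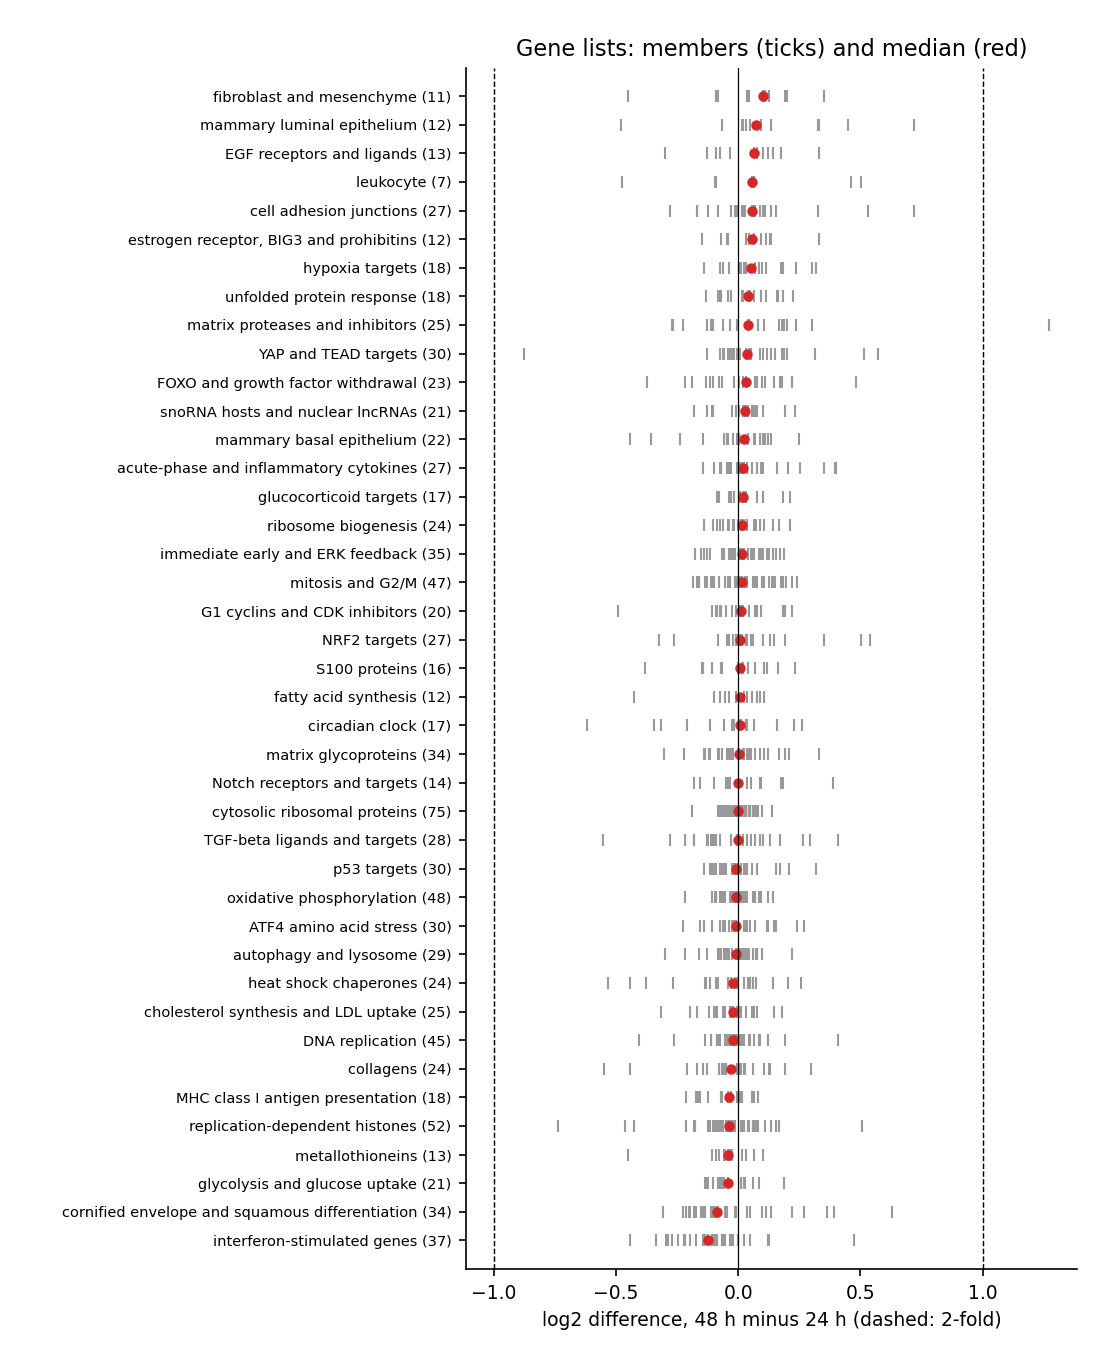
Log2 difference between 48 h and 24 h for the members of each of 41 gene lists (grey ticks, number measured in brackets) and the list's median (red). All medians sit near 0, with the interferon-stimulated genes lowest at -0.12, and the 1 tick past 2-fold is ADAMTS6.

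The cell cycle programmes were at the same level at both times within this scatter. Of 47 mitosis and G2/M genes, 27 were higher and 20 lower at 48 h, with a median of 0.01 and a range of -0.18 to 0.24. The non-specific array at 24 h was above the stapled-peptide array at 24 h in 43 of the 47 (median 0.16). With it in place of the 24 h stapled-peptide array, 3 of the 47 were higher at 48 h (median -0.14). CDC25C, the phosphatase that activates CDK1, was at 6.91 at 24 h and 7.15 at 48 h. Of 45 DNA replication genes, 17 were higher and 28 lower, with a median of -0.02. The non-specific array at 24 h was above the stapled-peptide array at 24 h in 34 of these 45 (median 0.07). RFC3, a clamp loader subunit, was at 6.35 and 5.94 on its brightest probe, and its other probe differed by 0.09 in the opposite direction. MCM10, an origin firing factor, was at 5.22 and 5.63.

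Replication-dependent histone genes showed a small shift in the lower direction. Of 52 measured, 19 were higher and 33 lower at 48 h, with a median of -0.04, and against the non-specific array at 24 h the median was 0.04. H3C11 was at 7.43 at 24 h and 6.70 at 48 h, and it was the only histone gene past 1.5-fold. Its level on the non-specific array at 24 h was 6.38. Histone genes are near-identical copies, and probes of 1 gene can read others.

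Growth and biosynthesis genes had medians near 0. The 75 cytosolic ribosomal protein genes had a median of 0.00 and a range of -0.19 to 0.14, with 35 higher. The 48 oxidative phosphorylation genes had a median of -0.01, with 21 higher and a range of -0.22 to 0.14. Of 21 glycolysis genes 8 were higher (median -0.04), and PKM, the last enzyme of the pathway, was at 14.35 at 24 h and 14.22 at 48 h. Of 25 cholesterol synthesis genes 10 were higher (median -0.02), with HMGCS1, an early enzyme of the route, at 9.57 and 9.75 and MVD, a later one, at 10.48 and 10.28.

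Stress programmes were level as well. The ATF4 list had a median of -0.01 over 30 genes, the p53 targets -0.01 over 30, the NRF2 targets 0.01 over 27, the heat shock chaperones -0.02 over 24 and the unfolded protein response 0.04 over 18, and none of these lists held a gene past 1.5-fold. CHAC1, a glutathione-degrading target of ATF4, was at 6.14 at 24 h and 5.92 at 48 h. SDF2L1, an endoplasmic reticulum chaperone cofactor, was at 12.77 and 12.93.

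Matrix and adhesion genes, which the study singled out in another comparison, had list medians between -0.03 and 0.06. Of 24 collagens, 11 were higher and 13 lower, with a median of -0.03. COL11A2, a fibrillar collagen chain, was at 8.08 at 24 h and 7.53 at 48 h, and its 3 probes differed by -0.55 to -0.30. COL17A1, the hemidesmosomal collagen of basal cells, was at 7.50 and 7.05, and at 6.83 on the non-specific array at 24 h. Of 34 matrix glycoproteins 17 were higher (median 0.00). Of 25 matrix proteases and inhibitors 13 were higher (median 0.04), and this list held the single member past 2-fold. ADAMTS6, a secreted metalloprotease, was at 4.09 at 24 h and 5.36 at 48 h on its brightest probe, a difference of 1.27 near the floor of the array, and its second probe differed by 0.22. Of 27 junction genes 17 were higher and 10 lower, with a median of 0.06. EPCAM was at 4.86 and 5.58 and CDH1, the epithelial cadherin, at 4.92 and 5.44, both dim.

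Taken as a list, the basal identity genes held their level. Of the 22 markers 12 were higher and 10 lower at 48 h, with a median of 0.02. KRT5, a basal keratin, was at 14.65 at 24 h and 14.59 at 48 h. KRT14, its partner, was at 12.34 and 12.20 on its brightest probe. Its other probes were lower too, at 11.82 and 11.61 and at 10.55 and 10.34. KRT17, a further basal keratin, was at 11.83 and 11.59. LAMB3, a laminin chain, was at 13.78 at both times. TP63, the transcription factor of basal cells, was at 6.22 and 5.86, with 5.99 on the non-specific array at 24 h. Of the cornified envelope list, 34 of 65 genes were measured, 11 of them higher and 23 lower, with a median of -0.09. SPRR4, a small proline-rich envelope protein, was the only one past 1.5-fold, at 4.59 and 5.22, and it was at 6.54 on the non-specific array at 24 h.

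The receptor and hormone genes of the study gave no larger values. Of the 12 measured genes on oestrogen receptor, BIG3 and prohibitins, 8 were higher, with a median of 0.06. PHB1, which encodes prohibitin and is a different gene from the PHB2 that the study targets, was at 11.42 at 24 h and 11.48 at 48 h. CCND1, which encodes cyclin D1, was at 10.32 and 10.25. TFF1, a classical oestrogen target, was at 6.48 and 6.62, with 6.36 on the non-specific array at 24 h. GPER1, the membrane oestrogen receptor, was at 8.21 and 8.06, and its 4 probes differed by -0.16 to 0.39.

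Interferon-stimulated genes formed the list furthest from 0. Of 41 listed genes 40 were on the array and 37 were measured on both arrays, with 1 well above background on 1 array only and 2 on neither. At 48 h 30 of the 37 were lower and 7 higher, with a median log2 difference of -0.12 against 0.00 over all genes, of which 49.9% were higher. None passed 1.5-fold. Among the 29 members with a mean log2 signal of 7 or more, 23 were lower, with a median of -0.11 and a range of -0.34 to 0.13. The shift was thus small in every gene and of 1 sign in most.

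The antiviral effectors were among the lowest. IFITM1, a membrane protein that blocks viral entry, was at 11.43 at 24 h and 11.10 at 48 h, and its probes differed by -0.34 and -0.38. ISG15, a ubiquitin-like modifier, was at 12.11 and 11.82. IFI6, a small interferon-induced membrane protein, was at 10.98 and 10.69. MX1, a dynamin-like GTPase, was at 8.27 and 8.03, and OAS2, which makes the activator of RNase L, was at 7.37 and 7.08. In contrast, IFITM2 and IFITM3, the brightest of the list, differed by -0.06 and -0.02, and IFIT2 was at 9.19 and 9.31. CMPK2, a mitochondrial nucleotide kinase, was at 6.69 and 6.25, and XAF1 was the highest of the list at 4.50 and 4.97.

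The transcription factors and sensors of the pathway were divided. IRF7 was at 10.50 at 24 h and 10.30 at 48 h, and IRF9, the DNA-binding subunit of the factor that STAT2 joins, was at 8.80 and 8.70. STAT2 was at 13.35 and 13.48 and IRF1 at 7.72 and 7.75, both slightly higher. The RNA sensors IFIH1 and RIGI differed by -0.06 and 0.05. In 18 measured genes of MHC class I antigen presentation, which interferon also drives, 12 were lower and 6 higher, with a median of -0.04, PSMB8, an immunoproteasome subunit, being at 10.60 and 10.43.

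Most of the same genes, but not all, were lower still on the non-specific array at 24 h. With that array in place of the 24 h stapled-peptide array, 23 of the 37 genes were higher and 14 lower at 48 h, with a median of 0.07. Against the 24 h stapled-peptide array itself, the non-specific 24 h array had 30 of 37 genes lower, with a median of -0.18. These comparisons share arrays, so they are side by side values and not separate evidence. ISG15 was at 11.56 and MX1 at 7.63 on the non-specific 24 h array, below both stapled-peptide levels. PARP9 was at 8.05 there, between its stapled-peptide levels of 8.22 and 7.94. CMPK2 went the other way, at 7.88 there, above its stapled-peptide levels of 6.69 and 6.25. In a bulk sample, fewer cells with an interferon response and less of its RNA per cell cannot be told apart.

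**Figure D3:**
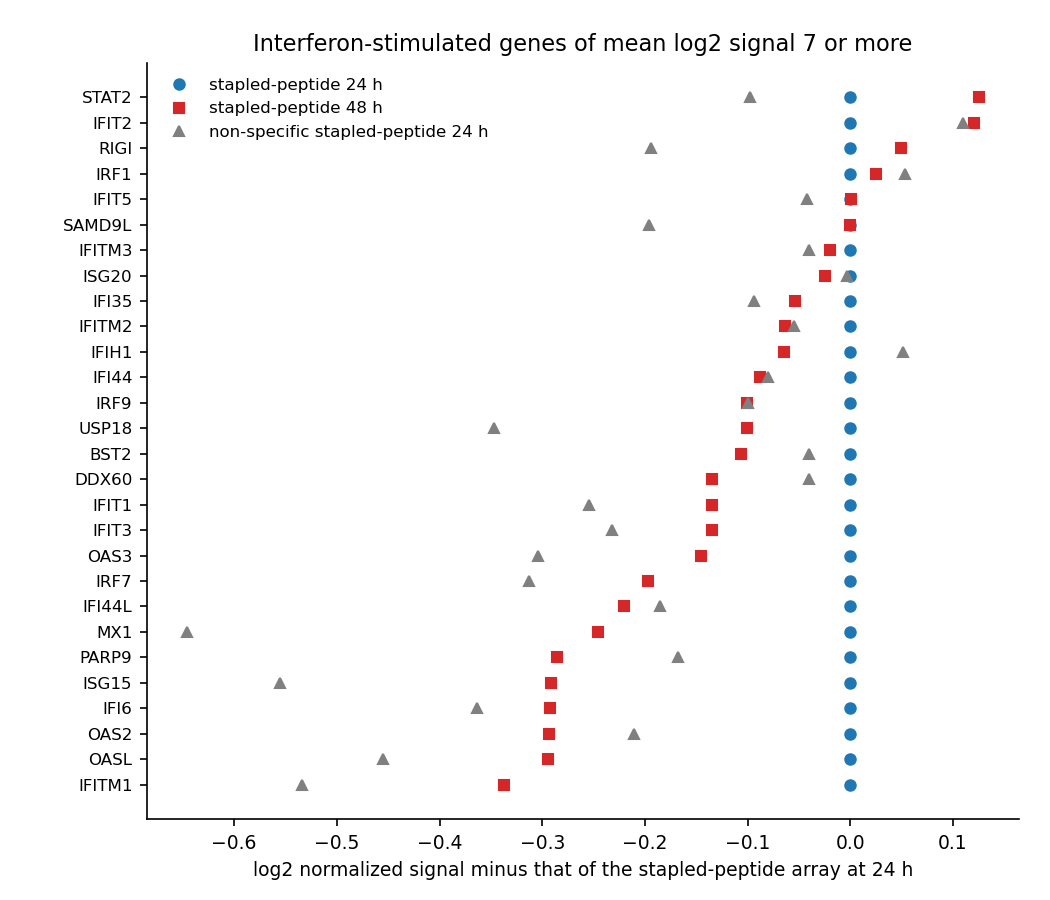
Log2 normalized signal of 28 brighter interferon-stimulated genes, as the difference from the stapled-peptide array at 24 h (blue circles, 0 by definition), for the stapled-peptide array at 48 h (red squares) and the non-specific array at 24 h (grey triangles). Of the genes shown, 22 were lower at 48 h; IFITM1 was lowest at -0.34, and for MX1 and ISG15 the grey triangle lies further left than the red square.

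The promoters of these genes are shown because their members moved together and the interferon response element lies near the start of many such genes. The letters GAAANNGAAA, searched on both strands in the window from 250 bases before to 50 bases after each RefSeq start (GRCh38.p14), were in 23 of the 39 promoters (58.97%) of the measured interferon-stimulated genes and in 3.57% of all 35116 promoters of the table. Of the 37 genes, 30 matched the table, and 20 of these had the motif in at least 1 promoter. Among those 20 genes 19 were lower at 48 h, with a median of -0.13, and among the 10 without it 5 were lower, with a median of -0.03. This split was not tested, and it was not set beside genes outside the list that hold the motif. The motif was in 45% of 20 promoters of the MHC class I list and in 7.14% of 28 promoters of the cornified envelope list. It was in 3.00% of the 16720 promoters of genes measured on both arrays. Promoters are printed for the 4 brighter members with the motif whose level was lowest at 48 h relative to 24 h, each 300 bases, 5′ to 3′ on the strand of the gene, with matches in capitals. They are IFITM1 at chr11:313790-314089 on the plus strand, IFI6 at chr1:27672143-27672442 on the minus strand, ISG15 at chr1:1013247-1013546 on the plus strand and PARP9 at chr3:122564251-122564550 on the minus strand.
IFITM1: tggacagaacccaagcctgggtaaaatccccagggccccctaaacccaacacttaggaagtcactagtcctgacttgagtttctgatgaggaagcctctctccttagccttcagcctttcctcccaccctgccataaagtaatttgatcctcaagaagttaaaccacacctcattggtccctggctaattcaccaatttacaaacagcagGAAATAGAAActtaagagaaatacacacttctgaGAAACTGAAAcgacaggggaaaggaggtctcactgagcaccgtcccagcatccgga
IFI6: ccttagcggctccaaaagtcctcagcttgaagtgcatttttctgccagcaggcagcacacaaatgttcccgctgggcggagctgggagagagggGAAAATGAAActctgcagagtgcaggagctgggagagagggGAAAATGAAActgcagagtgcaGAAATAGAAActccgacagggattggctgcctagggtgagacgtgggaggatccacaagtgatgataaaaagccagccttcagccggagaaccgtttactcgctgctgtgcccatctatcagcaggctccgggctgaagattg
ISG15: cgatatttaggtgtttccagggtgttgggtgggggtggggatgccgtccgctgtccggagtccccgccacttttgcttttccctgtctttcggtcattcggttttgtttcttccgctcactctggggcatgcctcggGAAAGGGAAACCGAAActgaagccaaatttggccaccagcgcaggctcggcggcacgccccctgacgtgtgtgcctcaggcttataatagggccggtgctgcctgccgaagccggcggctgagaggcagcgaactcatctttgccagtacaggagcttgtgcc
PARP9: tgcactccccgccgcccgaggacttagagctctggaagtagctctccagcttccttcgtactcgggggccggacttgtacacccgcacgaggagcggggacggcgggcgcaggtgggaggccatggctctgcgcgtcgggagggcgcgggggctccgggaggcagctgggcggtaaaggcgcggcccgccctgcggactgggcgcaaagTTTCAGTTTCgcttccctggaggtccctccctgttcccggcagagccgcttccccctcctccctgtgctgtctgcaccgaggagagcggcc
IFITM1 held 2 matches, IFI6 3 and ISG15 2 that overlap, all on the strand of the gene, and PARP9 held 1 on the opposite strand. A match is a description of these letters and was not linked to binding of any factor.

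Several lists leaned higher by a smaller amount. The fibroblast list had 8 of 11 genes higher (median 0.10) and the luminal list 10 of 12 (median 0.07), both with few measured members. Of 18 hypoxia targets measured, 14 were higher at 48 h and 4 were lower, with a median of 0.05 and a range of -0.14 to 0.32. ANKRD37, a compact target of HIF-1, was at 7.22 at 24 h and 7.54 at 48 h. LOX, the collagen cross-linking oxidase, was at 8.49 and 8.73, a difference of 0.24 (SE 0.03 over 10 spots). VEGFA, the angiogenic growth factor, was at 8.31 and 8.61 on its brightest probe, while its other probe differed by -0.15. The glycolytic genes, many of which hypoxia also drives, had a median of -0.04, as given above, and NDRG1, a bright target, was at 13.06 and 13.07.

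Of the RNA classes compared, small nucleolar RNAs had the median furthest above 0. These RNAs guide the chemical modification of ribosomal and spliceosomal RNA, the C/D box class for methylation and the H/ACA box class for pseudouridine. Most are cut out of introns of host genes. Whether the probes read the finished RNAs or the longer transcripts that hold them was not tested. Of the 186 snoRNA genes measured, 136 were higher at 48 h (73.1%) and 50 lower, with a median of 0.12. Without normalization between arrays this median was -0.13, against -0.23 over all genes. Among 13671 protein-coding genes 49.6% were higher (median 0.00), and among 718 lncRNA genes 49.3% (median 0.00). The lean was not particular to snoRNA genes. Of 19 genes annotated only as ncRNA, 15 were higher (78.9%, median 0.11), and of 12 snRNA genes 7 were higher (median 0.06). At 1.5-fold, 15 snoRNA genes were higher (8.06%) and 3 lower (1.61%), against 1.46% and 1.72% of protein-coding genes and 3.34% and 4.74% of lncRNA genes. The median log2 signal was 6.48 for snoRNA genes, 8.56 for protein-coding genes and 5.98 for lncRNA genes. The class was chosen after its values were seen.

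Both kinds of snoRNA had the same sign. Of 104 C/D box genes 71 were higher, with a median of 0.12, and of 82 H/ACA box genes 65 were higher, with a median of 0.14. Most were dim, with a median log2 signal of 6.48, but 52 of the 74 at or above 7 were also higher, with a median of 0.08. Over all genes of mean log2 signal 6 to 7 the median was 0.02. The 21 measured genes of the list of snoRNA hosts and nuclear lncRNAs had a median of 0.03, with 15 higher.

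**Figure D4:**
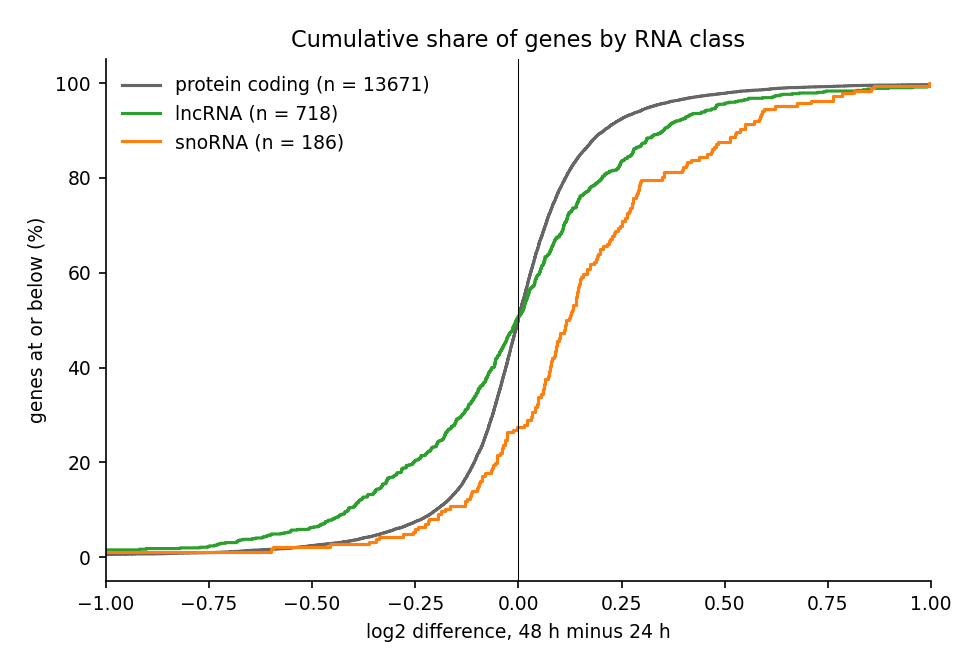
Cumulative share of genes (vertical axis, percent) at or below each log2 difference between 48 h and 24 h (horizontal axis) for protein-coding genes, lncRNA genes and snoRNA genes. The snoRNA curve lies to the right, crossing 50% at 0.12, where the protein-coding and lncRNA curves cross at 0.00.

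The brightest shifted snoRNA was SNORD3B-1, one of the near-identical U3 genes that act in the first cleavages of ribosomal precursor RNA. It was at 13.43 at 24 h and 14.20 at 48 h, and its second probe was at 10.43 and 10.78. SNORA27 was at 7.05 and 7.90 and SNORD16 at 7.19 and 7.78. SNORA11B was the highest, at 5.99 and 7.41, a 2.68-fold difference, and SNORA11C and SNORA11D of the same family differed by 0.62 and 0.68, whereas SNORA11 differed by -0.09. SNORD19 went the other way, at 7.21 and 5.32. Other families were divided (medians in brackets). SNORD116 had 5 of 8 genes higher (0.30), SNORA71 had 4 of 4 (0.12) and SNORD15 had 2 of 2 (0.43). SNORA70 had 3 of 7 higher (-0.01) and SNORD114 had 0 of 2 (-0.41). Levels of SNORD3B-1 (14.14), SNORA27 (7.80) and SNORD16 (7.70) on the non-specific array at 24 h lay close to those of the stapled-peptide at 48 h, and over the class that array differed from the 24 h stapled-peptide array by a median of 0.05. At 48 h the stapled-peptide array was above the non-specific 24 h array in 126 of 186, with a median of 0.07.

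Agreement between probes was weak. Of 3730 genes with over 1 probe, 55.4% had their brightest and second brightest probes differing in the same direction, and among the 1901 with both at a log2 signal of 7 or more it was 56.7%. Across these 1901 genes, which are not independent replicates and whose probes share both arrays, Pearson's r between the differences of the probes was 0.14 and Spearman's rho 0.22. PRPF38B, whose probes differed by -5.36 and 0.09, is among these genes, and r without it was not computed. Of 24 genes whose brightest probe passed 2-fold, 12 had a second probe of the same direction and 1 a second probe also past 2-fold. All probes passed 1.5-fold higher in 2 genes (0.0536%) and lower in 4 (0.107%).

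**Figure D5:**
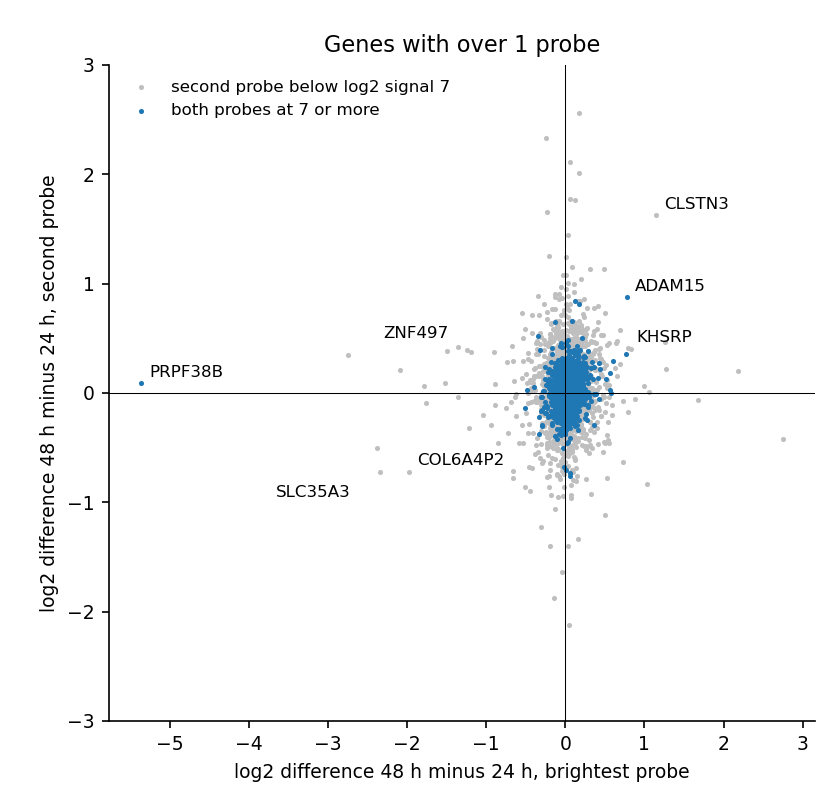
Log2 difference between 48 h and 24 h for the second brightest probe (vertical axis) against the brightest probe (horizontal axis), 1 point per gene with over 1 probe. Blue points have both probes at a log2 signal of 7 or more; CLSTN3 and ADAM15 lie in the upper right, and PRPF38B lies far left at a second-probe difference of 0.09.

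The genes whose probes agreed were led by CLSTN3, a calsyntenin, which is a transmembrane adhesion protein. Its brightest probe was at 10.17 at 24 h and 11.31 at 48 h, and its other probe at 5.30 and 6.92, differences of 1.14 and 1.62. It was the only gene with every probe past 2-fold in either direction. ADAM15, a membrane metalloprotease-disintegrin, was at 14.70 and 15.48 on 1 probe and 10.93 and 11.81 on the other. KHSRP, an RNA-binding protein that speeds the decay of AU-rich messengers, was at 12.49 and 13.29 on its brightest probe and at 5.21 and 5.61 on the other. KHSRP stands outside the 12 genes ranked highest by their least changed probe and was added after its values were seen.

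The remaining genes ranked highest by their least changed probe included PPP4R1L, AXIN2, ARHGEF39, ZNF407, AP4S1, ZNF568, TRANK1, CYP1B1-AS1 and LOC100132077. Their brightest probes differed by 0.41 to 0.69, and their stapled-peptide levels reached at most 7.02, that of CYP1B1-AS1 at 48 h. AXIN2, a feedback inhibitor of Wnt signalling, was at 5.20 and 5.67.

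In the lower direction, 4 genes had every measured probe past 1.5-fold, namely COL6A4P2, SLC35A3, PTCH1 and RAD51B. SLC35A3, a Golgi nucleotide-sugar transporter, was at 6.46 at 24 h and 4.11 at 48 h on its brightest probe and at 5.62 and 4.90 on the other. PTCH1, the Hedgehog receptor, was at 5.97 and 5.30, and its other probe at 5.44 and 4.73. RAD51B, a recombination mediator, was at 6.2 and 5.54. COL6A4P2, a collagen pseudogene, was at 6.50 and 4.53. The 8 others of the 12 lowest were OR10W1, LINC03025, SLC13A3, GOLGA6L6, IGSF3, FAM186B, GALNT9 and CALY. CALY, a vesicular protein that binds dopamine receptors, was the only bright one, at 14.38 and 13.96, with -0.69 on its dim second probe.

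Probes of 1 gene could also disagree completely. PRPF38B, a splicing factor, was at 13.30 at 24 h and 7.94 at 48 h on 1 probe, a 41.1-fold difference and the widest of all genes. Its other probe was at 8.07 and 8.16. On the non-specific array at 24 h these probes were at 7.93 and 8.31, so the 24 h stapled-peptide value of the first probe stood alone among the arrays. ZNF497, a zinc finger gene, was at 10.60 and 9.35 on its brightest probe and at 5.50 and 5.89 on the other. AKT2, a kinase below PI3K, was at 9.34 and 9.94, with other probes differing by 0.30 and -0.02.

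Of the 146 genes past 2-fold, 122 had 1 measured probe, and the widest of these were dim. After PRPF38B the widest differences over all genes were those of LINC00630 and FENDRR, at 2.75 and -2.74 on their brightest probes, but another probe of each differed in the opposite direction, by -0.42 and 0.35. Both were singled out after their values were seen. PDE1A, a calcium-dependent phosphodiesterase, was at 4.41 at 24 h and 7.15 at 48 h. KIF13A, a kinesin motor, was at 4.58 and 6.98, and SAMD13 at 4.91 and 7.23. FZD10-AS1, SLAMF8 and CRB2 followed, with differences of 2.27, 2.21 and 1.99.

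In the lower direction PRSS50, a testis protease, was at 7.59 at 24 h and 5.00 at 48 h. ZG16, a zymogen granule protein, was at 7.0 and 4.71. RGMA, SCARNA14 and CERS1 differed by -2.28, -2.27 and -2.22. On the non-specific array at 24 h, PRSS50 and ZG16 were at 4.06 and 3.72, below the 48 h stapled-peptide level, and PDE1A, KIF13A and SAMD13 were at 4.14, 4.77 and 4.73, beside the 24 h stapled-peptide level. For each of these 5 genes the wide value came from 1 array that stood above the other 2.

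Genes well above background on 1 array only gave bounds. There were 610 such genes at 48 h and 565 at 24 h, of which 100 and 98 had a bound of at least 2-fold. CELA2A was at least 9.49-fold higher at 48 h, at 7.19 against a probe not well above background at 24 h, and OR7C1, GLOD5, LINC01553 and KRTAP13-2 were at least 8.60-, 8.53-, 8.05- and 7.90-fold higher. CRACD was at least 10.1-fold lower at 48 h, and EFHC2, SNORD61, LINC02900 and LBX1-AS1 at least 9.36-, 9.31-, 8.82- and 7.81-fold lower. The brighter level of each of these 10 genes was between 6.85 and 7.22. None of the 10 was raised on the non-specific array at 24 h, where their log2 signals were 1.69 to 4.19.

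Among the genes past 2-fold, which array stood apart differed with the direction of the difference. Of the 34 genes of mean log2 signal 7 or more past 1.5-fold, 26 had their non-specific 24 h level nearer the 48 h stapled-peptide level and 8 nearer the 24 h level. CLSTN3 was at 11.51, ADAM15 at 15.54 and KHSRP at 13.33 on the non-specific 24 h array, each beside its stapled-peptide level at 48 h (11.31, 15.48 and 13.29) and not beside that at 24 h. Of all 92 genes at least 2-fold lower at 48 h, 74 had the non-specific 24 h level nearer the 48 h level, and of the 54 at least 2-fold higher, 13 did. For most of these genes past 2-fold the differing array was therefore the one with the higher signal. Of the 146 genes past 2-fold, 141 had a mean log2 signal below 7. All had to be well above background on both arrays, which leaves dim genes little room for a lower value. The filter thus favoured this outcome. For CLSTN3, ADAM15 and KHSRP the differing array was that at 24 h, with the lower signal. Whether time, peptide or the array itself set the differing value cannot be told apart with 1 array per condition.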

How the data were processed

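MCF-10A RNA was labelled with 1 colour and hybridised to Agilent arrays, 1 per peptide and time. The spot intensities deposited by the authors are background-subtracted linear signals, not normalized between arrays; per the file headers they were made with Feature Extraction 10.7.1.1, whereas the submitters' notes name 9.5. All 4 arrays shared a slide and scan. The median signal was 4.11 to 4.50 times the local background, and no spot was saturated.

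Probes for genes were kept, without spots that the software marked for non-uniformity or as outliers of their replicates. Log2 intensities were averaged per probe and quantile-normalized over the 4 arrays, as the study's methods state. Probes were named through RefSeq accessions (55.7% of probes), and a gene took its brightest probe well above background on both arrays. The other spots of replicated probes gave the spot SD. No test was run. Results of a few genes are not reported here. Members and lists were chosen with earlier results of these data known. Named genes were the 12 highest and 12 lowest by least changed probe, the 6 each way with 1 probe, the 5 widest bounds each way and up to 6 members per list. Steps were tested on simulated data. Python 3.11.15, numpy, pandas and, for normexp, limma 3.58.1 in R 4.3.3 were used.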

Additional observations from a re-analysis of the deposited data

Results flagged for a closer look

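Among the named genes, 4 differed by at least 2-fold between the times in opposite directions with the 2 peptides, with all 4 levels well above background, which is what brings them here; this opposition was not tested, and the non-specific array at 48 h stood apart from the other 3. SLC35A3 differed by -2.34 with the stapled-peptide and by 1.22 with the non-specific peptide (log2 signals 4.69 at 24 h and 5.91 at 48 h). RGMA differed by -2.28 and by 3.30 (4.63 and 7.93), SCARNA14 by -2.27 and by 5.85 (4.95 and 10.80), and CERS1 by -2.22 and by 6.60 (5.44 and 12.04). For RGMA, SCARNA14 and CERS1 the non-specific level at 24 h lay beside the stapled-peptide level at 48 h (4.58, 5.00 and 5.63). Their stapled-peptide levels at 24 h were 6.86, 7.27 and 7.86. For SLC35A3 it lay between the stapled-peptide levels of 6.46 at 24 h and 4.11 at 48 h. The differences with the non-specific peptide rest on its 48 h array, which is not used as a reference elsewhere here.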

How the results depend on the processing

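Against the main counts of 54 higher and 92 lower at 2-fold, 1.5-, 3- and 4-fold gave 251, 16 and 7 higher and 296, 30 and 19 lower. Without normalization the median of all genes was -0.23, 24 genes were higher and 226 lower, no list median lay within 0.1 of 0 (0 of 41), and the medians were -0.35 for interferon-stimulated genes and -0.13 for snoRNA genes, or -0.12 and 0.10 relative to all genes. Normexp, whose offset of 50 compresses dim signals, gave 8 higher and 13 lower, with medians of -0.0810 and 0.0699. A log2 signal of at least 7 on both arrays left 1 higher and 3 lower and a snoRNA median of 0.0807; no filter on dim probes gave 602 and 677. A shift to the 75th percentile gave a snoRNA median of 0.0902, with 36 genes higher and 116 lower. With the non-specific 24 h array as reference, 71 genes were higher and 53 lower, 32 of the 137 main 2-fold genes measured there stayed past 2-fold in their direction, 12 of 40 other lists and 108 of 181 named genes moved past spot error, the medians were 0.0710 for interferon-stimulated and 0.0689 for snoRNA genes, and 7 genes, each read from the probe brightest in that comparison, turned direction: ATP13A3-DT (0.15), CERS1 (0.19), CLSTN3 (-0.20), COL6A4P2 (0.0473), SCARNA14 (0.0535), SLC35A3 (0.50) and ZNF497 (0.22). On the probe used elsewhere SLC35A3 did not turn (-0.58) and COL6A4P2 was at 0.08; the cause was not tested. The snoRNA settings were added after the values were seen. The other settings, among them quantile normalization over 2 or 3 arrays, loess, marked spots kept, the mean over probes and the series value table, left these counts within 1.5 times and the medians within their spot error. No paired analysis was possible because each condition had 1 array. With 1 array a time no error beyond spot scatter is known, and at mean log2 signals up to 5 that scatter alone gave a difference an SD of 0.42.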
